A study of Mus musculus with 8 samples.

Results

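The genes described here were the interleukins, the colony-stimulating factors (CSF), the tumor necrosis factor (TNF) and transforming growth factor beta (TGF-β) families, their receptors and the genes named for induction by TNF, on a NanoString panel of myeloid genes. They were taken by name, as every gene called Il and a digit or starting with Tnf, Csf or Tgfb, and 54 of the 754 genes of the panel qualified once Il1b, Il1rn, Il1r2 and Il18 had been set aside. The RNA came from CD11b+ cells of the mouse conjunctiva, from female C57BL/6J mice with a labelled age of 10 weeks, and the labels name no transgene or deletion. Non-stressed (NS) mice were compared with mice after 5 days of desiccating stress (DS5), which combined scopolamine in the drinking water, a muscarinic blocker that stops tear secretion, with low humidity and an air draft. In both groups the cells were separated into MHCII+ cells and 3 MHCII-CD64+ gates, Ly6C-high (monocytes), Ly6C-inter and Ly6C-low, after a gate that removed NK cells, granulocytes, T cells and B cells. Each of the 8 samples was 1 pool of cells from several mice and every combination of group and gate had 1 sample, so none of the differences has a replicate check, and no p-value was computed. In bulk samples, fewer cells expressing a gene and less RNA per cell cannot be told apart.

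Cytokines are secreted proteins that act on cells through matched receptors. In resident macrophages, survival depends on the CSF1 receptor. Activated macrophages release TNF and IL-6, whose genes are switched on by the transcription factor NF-κB, and TNFAIP3 (A20) is a ubiquitin-editing enzyme that is itself induced by NF-κB and limits its activity. IL-4 and IL-13 act through the IL-4 receptor alpha chain to turn macrophages toward alternative activation, and IL-12 drives interferon gamma production by NK and T cells.

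The promoters of Il6, Tnf and Tnfaip3 are shown because these are the NF-κB target genes that the results turn on. Each run covers 250 bases before and 50 after an annotated transcription start from RefSeq (mouse build GRCm38.p6), read 5′ to 3′ on the strand of the gene. Capitals mark matches to the κB consensus, the sequence bound by NF-κB, and to TATAAA, each searched on both strands, and matches of one motif did not overlap those of the other. For Tnfaip3, which has a second annotated start, the window that held matches is printed.
Il6 (chr5:30012864-30013163, plus strand): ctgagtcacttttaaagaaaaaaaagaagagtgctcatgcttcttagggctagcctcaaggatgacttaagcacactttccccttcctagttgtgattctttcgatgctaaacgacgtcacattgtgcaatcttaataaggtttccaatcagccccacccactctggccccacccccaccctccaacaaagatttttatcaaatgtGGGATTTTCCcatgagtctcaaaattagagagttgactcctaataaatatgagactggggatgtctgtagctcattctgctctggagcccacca
Tnf (chr17:35201958-35202257, minus strand): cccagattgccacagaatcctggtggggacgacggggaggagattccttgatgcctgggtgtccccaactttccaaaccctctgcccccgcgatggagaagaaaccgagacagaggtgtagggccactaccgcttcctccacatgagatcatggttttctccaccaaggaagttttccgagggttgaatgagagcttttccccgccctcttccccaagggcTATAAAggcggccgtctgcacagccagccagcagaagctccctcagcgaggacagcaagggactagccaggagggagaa
Tnfaip3 (chr10:19015361-19015660, minus strand): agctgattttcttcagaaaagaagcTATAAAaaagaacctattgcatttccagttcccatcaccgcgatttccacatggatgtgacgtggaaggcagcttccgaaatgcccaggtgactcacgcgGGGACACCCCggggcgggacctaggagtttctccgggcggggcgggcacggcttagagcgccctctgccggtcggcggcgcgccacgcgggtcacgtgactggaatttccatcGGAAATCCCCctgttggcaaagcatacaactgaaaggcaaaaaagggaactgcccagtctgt
The κB consensus lay in the window of Il6 at -44 from the start site (GGGATTTTCC). In Tnfaip3 it lay at -125, where it reads on both strands (GGGACACCCC), and at -12 on the opposite strand (GGAAATCCCC). The Tnf window held no match. TATAAA was at -29 in Tnf and at -225 in Tnfaip3. Of all 32851 windows in the annotation, 8.46% held the κB consensus and 13.6% held TATAAA. Windows were found for 13 of the 18 members described one by one below, and 4 of these held the κB consensus (Il4ra, Il6, Tgfb1 and Tnfaip3) and 3 TATAAA (Il1a, Tnf and Tnfaip3). The capitals are a description only, since the motifs were chosen after the windows had been read, and a match is not a binding site.

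The assay counts fluorescent barcodes, 1 for each probe bound to a transcript, and the deposited raw counts had no value below 1, so that a value of 1 can stand for less and ratios to it carry that limit. The total over all genes was lowest in NS monocytes, at 2728 counts, and highest in NS MHCII+ cells, at 39677, while the positive control probes differed little, with geometric means from 858.5 to 1176. If every gene had the mean count of the negative control probes, the total would be 4901 in NS monocytes, 3958.5 in DS5 monocytes (measured 3929) and 4429.75 in DS5 Ly6C-low cells (measured 4056), so that these 3 totals were no higher than background. A count was called above the limit where it exceeded a limit set in each sample from its 8 negative control probes, their mean plus 2 SD. For the gates in the order MHCII+, monocyte, Ly6C-inter and Ly6C-low, which is kept below, the limit was 11.2, 15.1, 11.2 and 15.9 counts in NS and 15.3, 14.0, 23.0 and 12.5 counts in DS5. The high limit of DS5 Ly6C-inter cells was set by 1 probe of 24 counts, and it was the only negative control probe above its own limit. Macrophage and monocyte markers passed the limit for 11 of 13 genes in NS MHCII+ cells, for none in NS monocytes, for 3 in DS5 monocytes and for 6 to 10 in the other samples. CD64 defined the MHCII- gates, yet its gene Fcgr1 was under the limit in all 6 of these samples, with 3 to 9 counts. Ly6c1 went against the labels, with 583 counts in DS5 Ly6C-inter cells, 16 in DS5 monocytes and 2 to 14 in the others. Not all markers did so. Ccr2 had 15 counts in DS5 monocytes, above the limit, and 7 in DS5 Ly6C-inter cells, under it. C1qb had 5 and 100 counts in these samples, the same order as in NS monocytes (1) and NS Ly6C-inter cells (117). Whether the 2 DS5 samples match their labels was not tested. Values of the DS5 monocyte and Ly6C-inter samples below hold for these samples as labelled, and the counts over all samples are given without them too.

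Most of these cytokine and receptor genes were not detected in any of the populations. In 36 of the 54 no sample was above its limit, and their counts reached 11 at most. The 18 above it somewhere were 33.3% of the members, against 41.2% of all genes. Of the 18 that were above it in at least 1 sample, 17 were so in NS MHCII+ cells and 1, Tnfaip6, was so in DS5 monocytes alone. Counted by sample, NS MHCII+ cells had 17 members above the limit, where 38.6% of all genes were, and DS5 MHCII+ cells had 10, where 28.2% were. As shares of the 54 these were 31.5% and 18.5%. No member was above the limit in NS monocytes (3.18% of all genes), and 2 were in DS5 monocytes (6.90%). The number was 5 in NS Ly6C-inter cells (14.6% of all genes) and 3 in DS5 Ly6C-inter cells (13.0%). It was 2 in NS Ly6C-low cells (12.7%) and 1 in DS5 Ly6C-low cells (8.49%). In each sample the share of members was below the share of all genes.

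**Figure D1:**
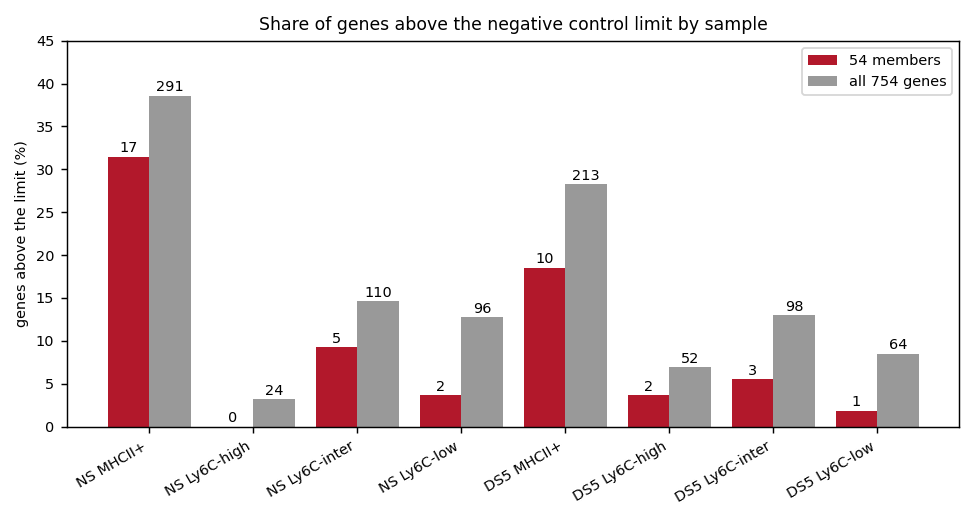
Percent of genes above the negative control limit in each of the 8 samples, for the 54 members (red bars) and all 754 genes (grey bars), with the number of genes above each bar. The red bar is the lower of the pair in every sample, from 0 members in NS monocytes to 17 in NS MHCII+ cells.

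Most of the ligands were not detected. None of the 5 measured CSF family ligands (Csf1, Csf2, Csf3, Il3 and Il5) was above the limit in a sample, and their counts were 1 to 10. The same was true of the 5 ligands of the IL-2 and IL-4 group (Il2, Il4, Il9, Il13 and Il15), at 1 to 9 counts, and of Il10 and Il22, at 1 to 11. Il10, a macrophage cytokine that restrains inflammation, reached 11 counts in NS MHCII+ cells, just under the limit of 11.2, and had 7 after stress. Among the IL-12 family ligands Il12a, Il12b, Il23a and Il27 had 1 to 6 counts. Il12b encodes the p40 subunit shared by IL-12 and IL-23, and the MHCII+ cells had 3 counts of it without stress and 5 with it, both under the limit. Il33 had 1 to 5 counts, the TNF family ligands Tnfsf4 and Tnfsf10 had 1 to 6, and Il25 and the enzyme gene Il4i1 had 1 to 8. The ligands above the limit in at least 1 sample were Tnf, Tnfsf9, Tgfb1, Il1a and Il6.

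Among the receptors, 10 members were above the limit in at least 1 sample. They were Csf1r, Csf2ra, Il4ra, Il6ra, Il10ra, Il17ra, Il1rl1, Tnfrsf1a, Tnfrsf1b and Tnfrsf12a, the receptor of TWEAK. Those never above it were the growth factor receptors Csf3r, Il3ra and Il5ra (1 to 7 counts) and the IL-1 family receptors Il1r1, Il1rap and Il18r1 (1 to 10). The T cell costimulatory receptors Tnfrsf4, Tnfrsf8 and Tnfrsf9, the RANK gene Tnfrsf11a and Tnfrsf14 had 1 to 11. Il15ra and Il21r had 1 to 6 counts, Tgfbr3 1 to 6 and Il27ra 1 to 3. Tnfrsf14 had 11 counts in NS MHCII+ cells and so lay just under the limit there, while Tnfrsf1b, with 12, lay just above it.

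Csf1r, the receptor that binds CSF1 and IL-34, was above the limit in 5 samples. Across the gates it had 118, 11, 34 and 18 counts in NS and 86, 14, 33 and 12 in DS5. The MHCII+ samples held the highest raw counts in both groups, and neither monocyte sample was above its limit, DS5 monocytes lying just under it. Csf2ra, the GM-CSF receptor alpha chain, had 25 counts in MHCII+ cells without stress and 12 with it, and 2 to 5 in the 6 MHCII- samples. Only NS MHCII+ cells were above the limit for it.

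Tnf, the founding member of its family, had 28, 6, 19 and 11 counts in the NS samples and 33, 5, 27 and 9 in DS5. It was above the limit in the MHCII+ and Ly6C-inter samples of both groups, and not in the monocyte or Ly6C-low samples. Il4ra had the same pattern. Its counts were 39, 10, 17 and 10 in NS, and 31, 7, 24 and 10 in DS5. Tnfrsf1a, the main TNF receptor, had 98, 11, 16 and 10 counts in NS and 49, 10, 20 and 5 in DS5, and was above the limit in both MHCII+ samples and in NS Ly6C-inter cells. Tnfrsf1b, which encodes the other TNF receptor, had 12 counts in NS MHCII+ cells, 13 after stress and 2 to 6 elsewhere.

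Tnfaip3 was detected most widely together with Csf1r, in 5 samples. Its counts were 123, 6, 22 and 50 in NS, and 120, 10, 20 and 31 in DS5. In raw counts the MHCII+ samples were high, the Ly6C-low samples came next, and the monocyte samples were low in both groups. With equal totals the order of the first pair turned, with a log2 ratio of MHCII+ over Ly6C-low cells of -1.48 (95% counting interval -1.96 to -0.97) in NS and -0.95 (-1.53 to -0.33) in DS5. Over 6 scalings it ran from -2.14 to 1.31 in NS and from -2.11 to 2.16 in DS5. Tnfaip8, an apoptosis regulator, was above the limit in both MHCII+ samples, with 42 counts and, in DS5, 27, and had 2 to 12 in the MHCII- samples, none of which was above its limit. Tnfaip6 encodes TSG-6, a secreted hyaluronan-binding protein. It had 1, 5, 2 and 3 counts in NS and 2, 21, 9 and 2 in DS5, so that the only sample above its limit was DS5 monocytes.

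Il6 was above the limit in the MHCII+ samples alone, with 47 counts in NS and 62 in DS5, against 1 to 9 in the MHCII- samples, all under their limits. The MHCII+ samples also had 34 and 24 counts of Il6ra, which encodes its receptor, against 1 to 6 elsewhere. Tgfb1, the TGF-β ligand gene measured, had 66, 14, 7 and 11 counts in NS and 63, 15, 11 and 6 in DS5, and DS5 monocytes were just above their limit of 14.0. Il1a, an IL-1 family alarmin, had 27, 2, 1 and 5 counts in NS and 17, 1, 17 and 2 in DS5. The 17 counts of DS5 Ly6C-inter cells were under the limit of 23.0, while the 17 of DS5 MHCII+ cells were above theirs.

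Il1rl1 encodes ST2, the IL-33 receptor, which is known from type 2 lymphoid cells, mast cells and eosinophils. It had 22, 1, 1 and 15 counts in NS and 15, 2, 4 and 8 in DS5, and was above the limit in NS MHCII+ cells alone, with NS Ly6C-low (limit 15.9) and DS5 MHCII+ cells (limit 15.3) just under it. In NS Ly6C-low cells 2 of 4 eosinophil markers were also above the limit, Siglecf with 20 counts and Ccr3 with 25, and Epx and Prg2 had 1 count each. The summed count of the 4 markers was 47 there and 5 to 18 in the other 7 samples, and their part in the Il1rl1 count was not tested. The remaining members above the limit in NS MHCII+ cells alone were Il10ra (17 counts), Il17ra (22), Tnfrsf12a (21) and Tnfsf9 (16). In DS5 MHCII+ cells they had 10, 11, 13 and 9 counts.

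**Figure D2:**
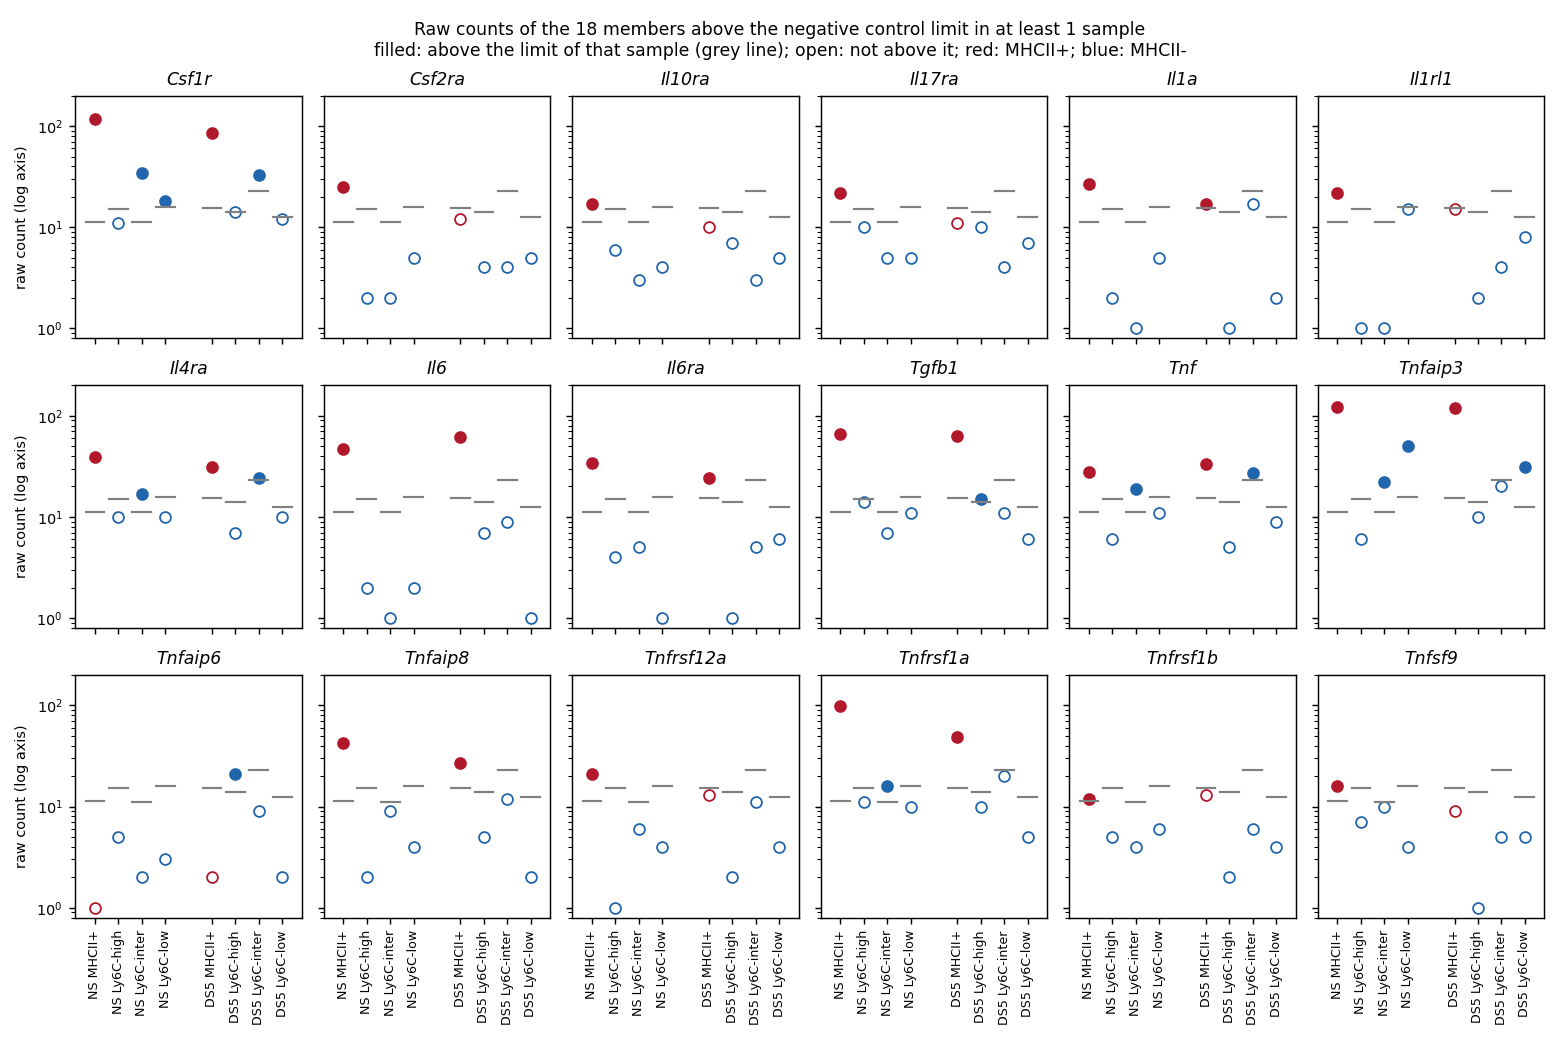
Raw counts on a log axis of the 18 members above the negative control limit in at least 1 sample, 1 panel a gene, with red points for MHCII+ and blue for MHCII- samples and grey lines for the limit of each sample. Filled points, above the limit, lie mostly in the MHCII+ samples, and Tnfaip6 is filled in DS5 monocytes alone.

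To compare populations the counts were scaled to equal totals, and 5 other scalings were set beside it because the direction often depended on the choice. A member was counted as higher in MHCII+ cells if both MHCII+ samples were above their limits and exceeded all 6 MHCII- samples. With equal totals no member met this rule, against 2.65% of all genes. With no scaling 9 members did (Csf1r, Il4ra, Il6, Il6ra, Tgfb1, Tnf, Tnfaip3, Tnfaip8 and Tnfrsf1a), or 16.7% of the members against 24.8% of all genes. With positive controls 10 did, or 18.5% against 25.9%, and with reference genes 4 did (Il6, Il6ra, Tnfaip8 and Tnfrsf1a), or 7.41% against 8.75%. The opposite pattern, both MHCII+ samples below all 6 others with at least 1 of those above its limit, held for Il4ra, Tnf and Tnfaip6 with equal totals, 3 members against 4.11% of all genes. It held for none with no scaling or positive controls (0.398% of all genes in both), and for Tnfaip6 alone with reference genes (1.59%). Without the DS5 Ly6C-inter sample the equal-totals numbers were the same, 0 and 3, and the 3 were the same genes. Of all 754 genes, 20 were then higher and 42 lower. Without the DS5 monocyte sample as well, 1 member was higher, Il6, and 2 were lower, Il4ra and Tnf. Of all 754 genes, 24 were then higher and 46 lower. For Il4ra and Tnf the monocyte and Ly6C-low counts in these orders were all under their limits.

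The depth of the MHCII- samples limited what could be seen in them. Had the 17 members above the limit in NS MHCII+ cells held the same share of the total in NS monocytes, none would have passed the limit, because a gene needed 219.9 counts in MHCII+ cells to do so. A lower share of these members in NS monocytes was therefore not detectable at this depth. In NS Ly6C-inter cells 3 of the 17 would have passed (Csf1r, Tnfaip3 and Tnfrsf1a), and those 3 did, with Tnf and Il4ra besides. Tnf would have had 4.20 counts at an equal share and had 19, and Il4ra would have had 5.85 and had 17. In NS Ly6C-low cells Csf1r and Tnfaip3 would have passed and did. In DS5, Tnfaip3 was the 1 of 10 that would have passed in monocytes (15.5 counts), and it had 10, but its log2 ratio of MHCII+ over monocytes was 0.64 (-0.29 to 1.73) and turned to -0.57 with background-subtracted totals. Of the 4 that would have passed in DS5 Ly6C-inter cells, Csf1r did, and Il6, Tgfb1 and Tnfaip3 did not.

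Tnfaip3 separated Ly6C-low from Ly6C-inter cells in the same direction under each scaling. In NS it was higher in Ly6C-low than in Ly6C-inter cells by a log2 ratio of 1.22 (95% interval 0.47 to 2.02), and the range over 6 scalings was 1.18 to 1.88, with the interval above 0 in each. In DS5 the log2 ratio was 2.44 (1.58 to 3.33), with a range of 0.63 to 3.25 and the interval above 0 in 5 of 6 scalings. Its size is uncertain, since the total of DS5 Ly6C-low cells was no higher than background. With no scaling it was 0.63 (-0.22 to 1.52), from 31 and 20 counts. These exact intervals cover counting error only. Csf1r went the other way in NS, from 34 counts in Ly6C-inter to 18 in Ly6C-low cells, with a range of -0.92 to -0.22 and the interval below 0 in 2 of 6 scalings, and its direction in DS5 depended on the scaling. The quotient of Tnfaip3 to Csf1r counts, which no scaling changes, was 2.78 in NS Ly6C-low and 0.647 in NS Ly6C-inter cells, a ratio of 4.29 (1.88 to 9.87). In DS5 it was 2.58 and 0.606, a ratio of 4.26 (1.65 to 11.2), although Csf1r in DS5 Ly6C-low cells and Tnfaip3 in DS5 Ly6C-inter cells were under the limit. Gene pairs for such quotients were chosen after their values had been seen, and the intervals take no account of that choice. These quotients also include the difference in Csf1r, which fell in NS. They are therefore no separate support for a difference in Tnfaip3.

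Tnf took a larger part of the counts in Ly6C-inter than in MHCII+ cells under 4 of 6 scalings. The log2 ratio of MHCII+ over Ly6C-inter cells was -2.18 (-3.07 to -1.26) in NS and -0.81 (-1.58 to -0.02) in DS5, and it turned to 0.56 and 0.29 with no scaling. The quotient of Tnf to Csf1r was 0.559 in Ly6C-inter and 0.237 in MHCII+ cells of NS mice, a ratio of 2.36 (1.10 to 4.97), and 0.818 and 0.384 in DS5, a ratio of 2.13 (1.06 to 4.28). For Il4ra the same ratio was 1.51 (0.709 to 3.14) in NS and 2.02 (0.977 to 4.13) in DS5, and both intervals included 1. Csf1r was chosen as the second gene after its values had been seen, and its own difference enters these quotients. They are therefore no separate support for a larger part of Tnf or Il4ra in Ly6C-inter cells.

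Il6 was higher in MHCII+ than in Ly6C-inter and Ly6C-low cells under all 6 scalings in both groups. Over Ly6C-inter cells the log2 ratio was 2.82 (0.27 to 8.15) in NS and 1.69 (0.67 to 2.88) in DS5, and over Ly6C-low cells it was 1.78 (-0.15 to 4.87) and 3.05 (0.52 to 8.38). The interval was above 0 in 5 of 6 scalings over Ly6C-inter cells in both groups. Over Ly6C-low cells it was so in 3 of 6 in NS and 4 of 6 in DS5. The second count of each pair was under the limit. At an equal share Il6 would have passed the limit in DS5 Ly6C-inter cells (29.0 counts). It would not have passed in NS Ly6C-inter (7.05), NS Ly6C-low (6.87) or DS5 Ly6C-low cells (8.29). Against monocytes, with 2 and 7 counts, the direction depended on the scaling, and the log2 ratio was 0.69 (-1.24 to 3.78) in NS and 0.20 (-0.93 to 1.57) in DS5. In NS, none of the 17 members above the limit in MHCII+ cells kept its direction against monocytes under all 6 scalings. The scalings moved the median log2 ratio of all genes in this comparison from -4.35 to 1.78. That number of members therefore reflects the scalings and is no result about the members.

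**Figure D3:**
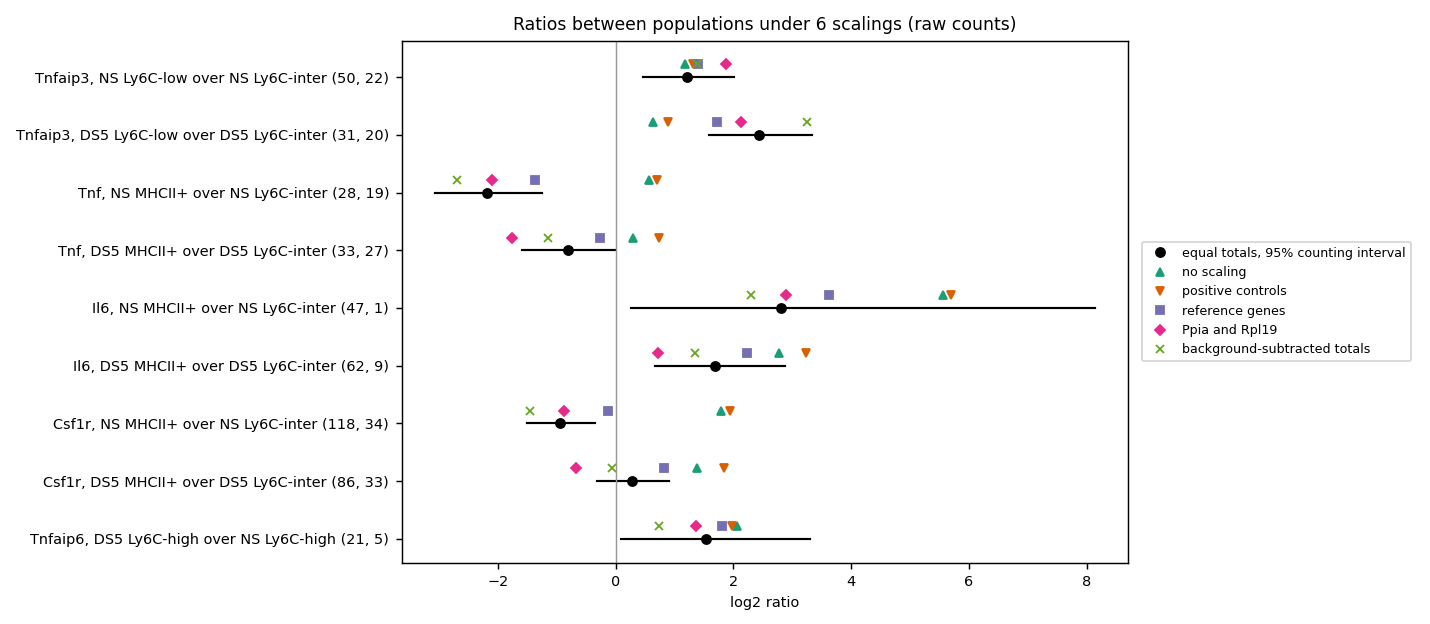
Log2 ratios (horizontal axis) of Tnfaip3, Tnf, Il6, Csf1r and Tnfaip6 between the samples named at the left, with raw counts in brackets, where black points and lines are equal totals with the 95% counting interval and coloured symbols the 5 other scalings. All symbols of Tnfaip3, Il6 and Tnfaip6 in the rows drawn lie above 0, while those of Tnf and Csf1r fall on both sides.

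The effect of desiccating stress was read in each gate at a log2 ratio of at least 1.5 with the higher count above its limit. In MHCII+ cells no member passed in either direction, against 0.133% of all genes higher and 0.928% lower in DS5. In monocytes 1 member, Tnfaip6, was higher (0.531% of all genes), and none was lower (0% of all genes). In Ly6C-inter cells no member passed, against 2.92% of all genes higher and 3.98% lower, and none did in Ly6C-low cells, against 0.265% and 0.928%. The median DS5 over NS log2 ratio of the 54 members, most of them under the limit, was 0.37 in MHCII+ cells and -0.37 in monocytes. It was -0.67 and 0.52 in the Ly6C-inter and Ly6C-low gates. Over all genes the medians were 0.14, -0.16, -0.26 and 0.52. The scaling moved these medians of all genes, which ran from -0.24 to 0.20 in MHCII+ cells, from -0.96 to 0.37 in monocytes, from -0.36 to 1.0 in Ly6C-inter cells and from -0.19 to 1.06 in Ly6C-low cells. With no scaling the members' medians were -0.02, 0.16, 0.58 and 0.00.

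In MHCII+ cells, where the members were measured best, Il6 was higher in DS5 than in NS by a log2 ratio of 0.79 (0.22 to 1.37), from 62 and 47 counts. It was higher under each scaling, by 0.40 to 0.84, and the interval was above 0 in 4 of 6. Tnfrsf1a was lower, at -0.61 (-1.14 to -0.10) from 49 and 98 counts, with a range of -1.0 to -0.56 and the interval below 0 in all 6. The quotient of Il6 to Tnfrsf1a was 1.27 in DS5 and 0.480 in NS, a ratio of 2.64 (1.53 to 4.54). Tnf had a log2 ratio of 0.62 (-0.15 to 1.4), and its interval was above 0 in none of the 6 scalings. Its quotient to Tnfrsf1a was 0.673 and 0.286, a ratio of 2.36 (1.22 to 4.54). Both quotients include the fall of Tnfrsf1a, which was chosen as the second gene after its values had been seen. They are therefore no separate support for a rise of Il6 or Tnf. Tnfaip3 was at 0.35 (-0.02 to 0.73), Tgfb1 at 0.32 (-0.20 to 0.84), Il4ra at 0.06 (-0.67 to 0.77) and Csf1r at -0.07 (-0.49 to 0.34).

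Of the 10 members above the limit in both MHCII+ samples, 5 had a lower value in DS5 under all 6 scalings (Csf1r, Il1a, Il6ra, Tnfaip8 and Tnfrsf1a), 2 (Il6 and Tnf) a higher one, and 3 changed direction with the scaling. Of the 213 genes above it in both, 34.7% were lower and 16.9% higher under all 6. With equal totals the median log2 ratio was -0.01 over the 10 members and 0.08 over the 213 genes. Among the 17 members above the limit in either sample the intervals of Il6 and Tnfrsf1a alone excluded 0. The matching share over all genes was not computed, so whether these 2 exceed the rate of the panel is not known. The 7 members no longer above the limit in DS5 were Csf2ra, Il10ra, Il17ra, Il1rl1, Tnfrsf12a, Tnfrsf1b and Tnfsf9. The DS5 sample had the lower total and the higher limit, and with equal totals the interval of each of the 7 included 0. Their raw counts were lower in DS5 except for Tnfrsf1b, with 12 counts in NS and 13 in DS5. Since the 7 were picked for being above the limit in NS and not in DS5, these lower counts are no result.

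**Figure D4:**
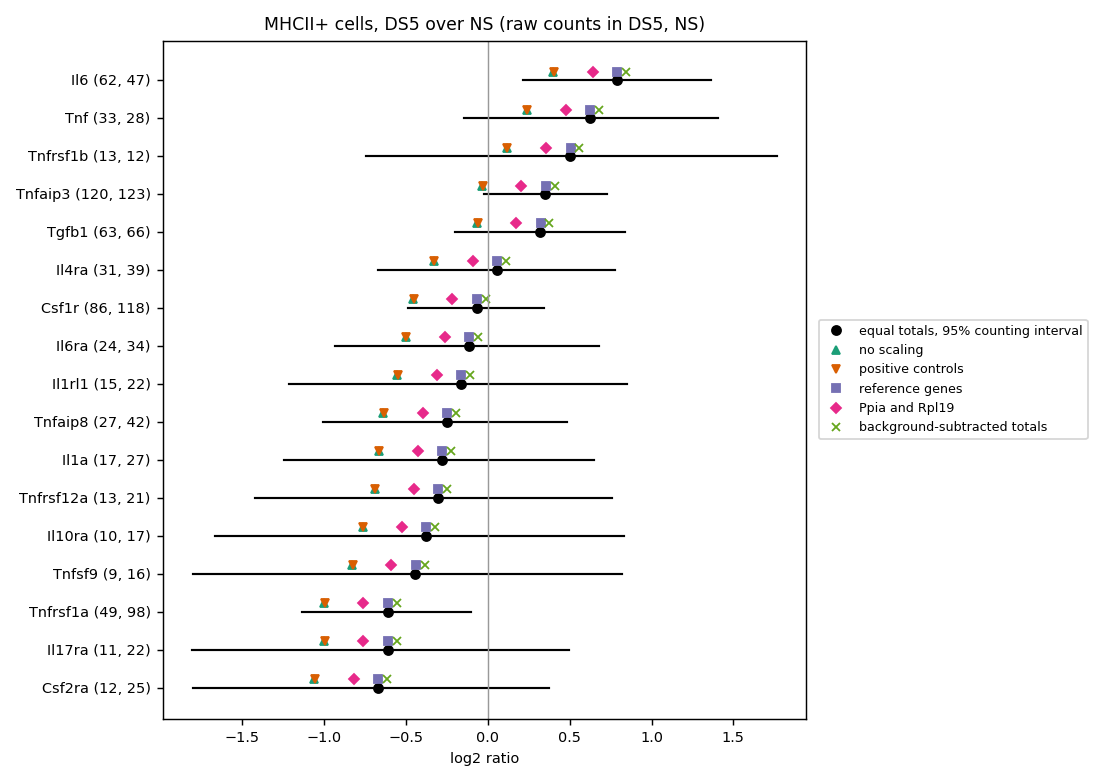
Log2 ratio of DS5 over NS in MHCII+ cells for the 17 members above the limit in either sample, with raw counts in DS5 and NS in brackets, black points and lines for equal totals with the 95% counting interval and coloured symbols for 5 other scalings. Il6 (0.79) and Tnfrsf1a (-0.61) have the intervals that exclude 0.

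For Tnfaip6 in monocytes, the 21 counts after stress against 5 without it gave a log2 ratio of 1.54 (0.10 to 3.31). It was higher in DS5 under all 6 scalings, from 0.74 to 2.07, and its interval was above 0 in 4 of them. It was 1.36 with Ppia and Rpl19 and 0.74 with background-subtracted totals, both under the threshold. Against DS5 MHCII+ cells, with 2 counts and under the limit, DS5 monocytes were higher under each scaling. The log2 ratio of MHCII+ over monocytes was -6.34 (-9.48 to -4.31) with equal totals and ran from -7.55 to -3.10 over the 6 scalings. Its size is uncertain, since the total of DS5 monocytes was no higher than background. DS5 Ly6C-inter cells had 9 Tnfaip6 counts, under their limit of 23.0, so the call rests on the library labelled as DS5 monocytes, whose Ly6c1 count was the lower of the pair. Tgfb1, the other member above the limit in DS5 monocytes, had 15 and 14 counts in DS5 and NS.

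In Ly6C-inter cells Csf1r and Tnfaip3 were lower in DS5 than in NS under all 6 scalings, at -1.30 (-2.03 to -0.56) and -1.39 (-2.34 to -0.45), though only in 3 of 6 was the interval below 0. Their raw counts hardly moved, from 34 to 33 and from 22 to 20, while the total of the sample rose from 5948 to 14201. The DS5 Ly6C-inter sample also held other markers. Besides Ly6c1, Itgam had 161 counts there and 7 to 91 elsewhere, and S100a9, a neutrophil and monocyte gene, 55 and 1 to 16. The summed count of 6 neutrophil markers was 74 there and 9 to 29 elsewhere. Ly6g and Cxcr2, which define neutrophils, had 1 and 3 counts. Their part in the ratios of Csf1r and Tnfaip3 was not tested. For Tnfaip3 in Ly6C-low cells, 31 counts after stress against 50 gave a log2 ratio of -0.17 (-0.87 to 0.50), and its direction depended on the scaling.

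Some genes that carry the signals of these receptors were detected, mostly in the MHCII+ samples. Of 17 measured in a list of 42 signalling genes, 9 were above the limit in MHCII+ cells of NS mice (38.6% of all genes). After stress 8 were (28.2%). None was in either monocyte sample, where 3.18% (NS) and 6.90% (DS5) of all genes passed. With so few genes passing, this cannot be read as absence of the 17. Ly6C-inter cells had 2 above it without stress (14.6% of all genes) and 1 with it (13.0%). Ly6C-low cells had 2 (12.7%) and 0 (8.49%). Nfkbiz, an NF-κB cofactor gene needed for Il6 induction, was above the limit in 5 samples. It had 154, 11, 37 and 43 counts in NS and 106, 12, 84 and 8 in DS5. In Ly6C-low cells it was lower after stress past the threshold, at -1.91 with a range of -2.61 to -1.36. So was Nfkbia, which encodes the NF-κB inhibitor IκBα, from 21 counts to 4, at -1.88 with a range of -2.58 to -1.33. Socs3, a feedback inhibitor of IL-6 receptor signaling, had 21 counts in NS Ly6C-inter cells and 17 after stress, the latter under the limit of 23.0. It passed the threshold there with equal totals, at -1.56 with a range of -1.67 to -0.30. Of 7 TNF family genes that go by other names, Cd40, the receptor of the T cell ligand CD40L, was alone above the limit, with 19 counts in NS MHCII+ cells and 22 after stress. The measured markers of T and NK cells (2), B cells (1), mast cells and basophils (7) and epithelial cells (1, Cdh1) were under the limit in each of the 8 samples. In DS5 Ly6C-inter cells, however, 1 probe had set the limit of 23.0. Cdh1 had 16 counts there and Fcer1a, a mast cell and basophil marker, 18, against 1 to 5 elsewhere for each. The summed count of the mast cell and basophil markers was 30 there and 11 to 21 elsewhere. What part such cells had in this sample was not tested. Of 6 dendritic cell markers, Itgax (12 counts) and Ccr7 (15 counts) were above the limit in NS MHCII+ cells and none in the others. Their summed count was 49 there, 36 in DS5 MHCII+ cells and 11 to 18 in the MHCII- samples, and their part in the MHCII+ counts of the cytokine and receptor genes was not tested.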

How the data were processed

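The 8 samples were analyzed as labelled, with 1 sample for each of 4 gates in NS and DS5. The authors pooled cells of several mice, extracted total RNA, measured it on NanoString's nCounter panel for mouse myeloid innate immunity (V2), and named nSolver for analysis, with normalization settings not given in the sources used here. The deposited values are raw counts of 768 probes (754 genes, 8 negative and 6 positive controls), without background subtraction or normalization, so background adds to low counts.

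Here counts were divided by the total over the genes of their sample relative to the mean total, with no floor. The 95% intervals are exact (Clopper-Pearson, and conditional for quotients of 2 genes) and cover counting error only. They were checked on simulated data. Members, gene lists and roles were chosen with earlier results of these data known. By the rule for named genes, members above the limit in at least 1 sample were given one by one, members above it in none by role and range, and listed signalling genes where called. Cd40, the marker genes named singly and the gene pairs for quotients were chosen after their values were seen. Alternatives were 3 other limits, 5 other scalings (20 reference genes measured), a threshold of 1, and intervals in place of the limit. Leaving out the DS5 Ly6C-inter sample, alone or with the DS5 monocyte sample, was added after their Ly6c1 counts had been seen. Gene names are those of the table, and all 54 matched a RefSeq symbol. Python (3.11.15) served throughout, arrays with numpy 2.4.6, tables with pandas 2.3.3, intervals with scipy 1.17.1, plots with matplotlib 3.10.9.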

Additional observations from a re-analysis of the deposited data

How the results depend on the processing

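Of the 26 log2 ratios of DS5 over NS with a count above the limit, 9 changed direction under at least 1 other scaling, and none whose interval excluded 0 did. The number of members higher in both MHCII+ samples was 0 with equal totals, with Ppia and Rpl19 and with background-subtracted totals, 9 with no scaling, 10 with positive controls and 4 with reference genes, where 24.8%, 25.9% and 8.75% of all genes were. The number lower was 3 with equal totals (4.11% of all genes), 0 with no scaling or positive controls (0.398% in both) and 1 with reference genes (1.59%). It was 4 with Ppia and Rpl19 and 4 with background-subtracted totals. These were 7.41% of the members, against 6.23% and 8.75% of all genes. Leaving out the DS5 Ly6C-inter sample, a choice made after seeing the data, gave 0 and 3 with equal totals (20 and 42 of all 754 genes). Leaving out the DS5 monocyte sample as well gave 1 (Il6) and 2 (24 and 46 of all 754 genes). Tnfaip6, the 1 member called higher in DS5 monocytes, was not called with Ppia and Rpl19 or with background-subtracted totals (0 members). With an interval that excludes 0 in place of the limit, 1 member was lower in DS5 monocytes (Tnfsf9, 1.33% of all genes), 1 higher (Il1a, 3.45%) and 1 lower (Tnfsf9, 6.90%) in DS5 Ly6C-inter cells, and 2 higher in DS5 Ly6C-low cells (Il3 and Il6ra, 2.79%). All of these had counts under the limit. With a threshold of 1, 2 members were lower in DS5 Ly6C-inter cells (Csf1r and Tnfaip3), or 3.70% of the members against 8.09% of all genes.

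With a limit of mean + 3 SD, 1 member was above it in each of NS Ly6C-low, DS5 monocyte and DS5 Ly6C-inter cells. With the highest negative control probe as the limit, 1 member was above it in NS monocytes and 3 in DS5 Ly6C-low cells. Without that probe 6 were above it in DS5 Ly6C-inter cells. No paired analysis was possible because each group and gate had 1 sample and so shared 1 replicate number. A fit with the 4 gates as blocks, which would take different cell populations as replicates of the stress, was not run.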
